A study of Mus musculus with 9 samples.

Results

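The genes Lifr, Il6st, Jak1, Stat3, Socs3, Pim1 and Gbx2, which carry the signal of leukaemia inhibitory factor (LIF) or respond to it, were followed in 9 clones of the embryonic stem cell line E14, which is of mouse origin. These 7 genes were named as a pathway, with earlier results of these data known. They make up 7 of the 35532 genes with a matched transcript. All 7 passed the minimum of a mean of 1 CPM, as did 13363 genes in all. RNA-seq of mRNA was made from each clone, giving 10783718 to 14309662 estimated counts per clone. The clones had been picked from the bulk line for lipid droplets of varied size, and all had then been grown alike on gelatin in serum with LIF, so that the ligand was present in every culture and no clone was without it. The labels used here do not tie a droplet size, a genotype or a treatment to a clone, so there are no groups, each clone is 1 sample without a replicate, and values are given clone by clone.

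LIF binds a receptor pair made of LIFR and gp130, the product of Il6st. The receptors have no kinase of their own and rely on Janus kinases bound to their tails, of which JAK1 is the main one for this pair, and these phosphorylate STAT3. Phosphorylated STAT3 enters the nucleus and activates genes that keep mouse embryonic stem cells self-renewing in serum. Among its targets, Socs3 encodes an inhibitor that binds gp130 and blocks the kinases, Pim1 encodes a serine/threonine kinase that favours survival, and Gbx2 encodes a homeobox factor that can maintain these cells when LIF is low. In the tables used here only RNA was measured, so phosphorylation of STAT3 was not seen.

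Because Socs3 is the best known feedback target of STAT3, the 250 bases before its start were examined, and those of Gbx2, the member whose level differed most between clones, are shown beside them. Both come from RefSeq (GRCm38.p6) and are written 5′ to 3′ on the minus strand of the gene, with capitals for the STAT motif TTCNNNGAA, which reads the same on both strands.
Socs3, chr11:117969367-117969616: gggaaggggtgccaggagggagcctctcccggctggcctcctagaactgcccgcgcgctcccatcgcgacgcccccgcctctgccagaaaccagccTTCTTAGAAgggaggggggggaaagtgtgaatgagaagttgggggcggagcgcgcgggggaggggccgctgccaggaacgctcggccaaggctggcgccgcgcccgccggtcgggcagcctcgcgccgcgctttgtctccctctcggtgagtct
Gbx2, chr1:89931177-89931426: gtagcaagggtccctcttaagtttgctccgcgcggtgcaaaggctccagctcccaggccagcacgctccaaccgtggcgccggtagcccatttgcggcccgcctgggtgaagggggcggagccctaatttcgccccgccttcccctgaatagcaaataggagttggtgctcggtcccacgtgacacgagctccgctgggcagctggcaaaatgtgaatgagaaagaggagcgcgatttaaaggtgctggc

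The Socs3 window held 1 match, which begins 154 bases before the RefSeq start. The window lies inside the span that GENCODE M21 gives the gene (chromosome 11, 117966079 to 117970047). Of the 9 windows of the members, this was the 1 with a match, against 5.70% of 12892 windows of the genes tested and 7.02% of all 32851 windows. A match describes the letters and not binding, and this window is short.

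The genes that define embryonic stem cells were expressed in every clone. Pou5f1 had 1294 CPM in the highest clone, clone 17, and 842 CPM in the lowest, clone 11. The 7 stem cell markers summed to 3247 CPM (clone 11) and 3645 CPM (clone 10), and to 4763 to 5516 CPM for the remaining 7 clones. Markers of other cell types were summed in the same way. The trophoblast list, nearly all of it Krt8 and Krt18, summed to 464 and 450 CPM for clones 11 and 10, with 29.4 to 100.3 CPM for the rest. For the mesoderm list the sums were 56.2 and 30.9 CPM, with 4.87 to 14.6 CPM for the rest. For the fibroblast list they were 58.4 and 49.6 CPM, with 5.87 to 19.1 CPM for the rest, and Lum and Postn were at 0 in 7 clones each. In that list Col1a1 had 42.0 and 33.3 CPM in clones 11 and 10, against 0.66 to 7.14 CPM for the rest, while Thy1 had 7.46 and 7.37 CPM there, inside the 4.37 to 10.4 CPM of the rest. The neural sums were 206 and 252 CPM, with 130 to 162 CPM for the rest and Neurog2 at 0 in 8 clones. Nes carried that difference, with 97.6 and 105.7 CPM against 14.4 to 28.5 CPM, while Tubb3 had 101.7 and 135 CPM against 96.8 to 133 CPM and Sox1 was lowest in clone 11. The primitive endoderm sums were 11.1 and 8.38 CPM, with 5.74 to 8.44 CPM for the rest. In that list Dab2 had 7.74 CPM in clone 11, while Foxa2 was lowest there with 0.069 CPM. Eomes of the mesoderm list had 7.79 and 6.72 CPM in clones 11 and 10, against 2.29 to 7.77 CPM for the rest. All genes of the lists were found in the files. Whole chromosomes also differed in level. The median gene of chromosome 11 lay at -0.36, -0.38 and -0.40 log2 units relative to its median over clones in clones 14, 17 and 8, and chromosome 8 ran between -0.21 (clone 11) and 0.32 (clone 14).

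All 7 pathway genes were expressed in every clone, and 6 of them differed by 1.31-fold (Lifr) to 1.59-fold (Socs3) between their highest and lowest clone. The range of a gene is its highest minus its lowest clone in log2 CPM. Over the 7 members the median range was 0.64, against 0.79 over all genes tested, and 1 of the 7, Gbx2, had a range of 1 or more, where 35.2% of the genes tested did. A range of 2 or more was reached by none of the 7, where 7.92% of the genes tested reached it. Every member differed between libraries by more than Poisson counting (chi-square on counts, Benjamini-Hochberg adjusted over all genes tested), as did 89.4% of the genes tested, so that this says little about the members. The range was also larger among genes of low level. Among genes within 2-fold of the same mean level, 77.1% had a larger range than Lifr, 62.1% than Pim1, 53.8% than Stat3, 44.5% than Jak1, 40.4% than Il6st, 38.0% than Socs3 and 15.4% than Gbx2.

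**Figure D1:**
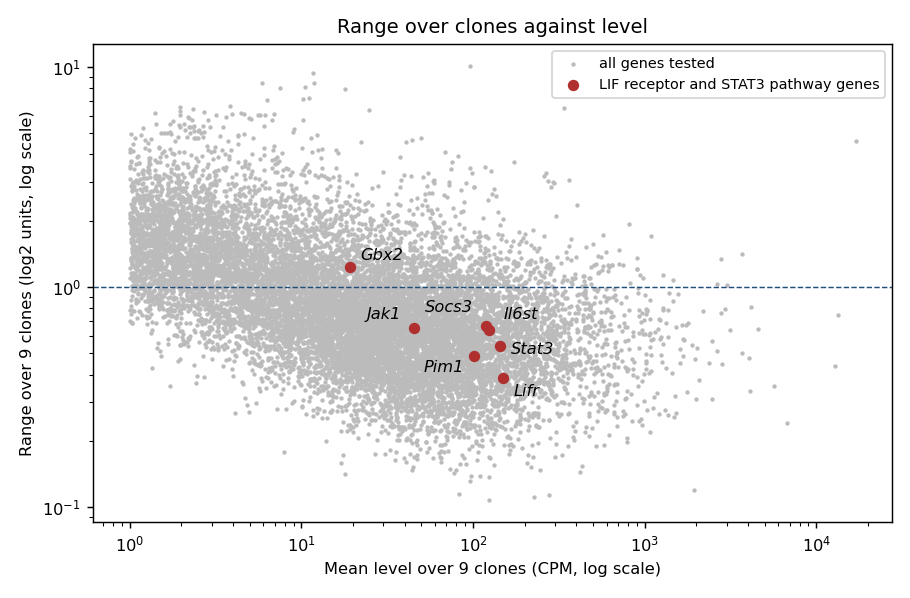
Range over the 9 clones in log2 units on a log scale (vertical axis) against mean level in CPM on a log scale (horizontal axis), with 1 grey point for each of 13363 genes and red points for the 7 pathway genes. Gbx2 lies above the dashed line at a range of 1, and the other 6 members lie below it.

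On the TPM scale, which is per length, the order of median levels over the clones was Socs3 at 65.1, Stat3 at 57.1, Pim1 at 56.1, Il6st at 36.9, Lifr at 34.5, Jak1 at 14.2 and Gbx2 at 12.8 TPM. Both receptor genes were thus at similar levels, and the kinase gene was below both in its median. Socs3 spanned 59.1 to 86.9 TPM and Stat3 45.5 to 68.2 TPM, so that these neighbours in the order overlap across clones, and Pim1, at 46.3 to 61.7 TPM, overlaps both. Il6st at 28.4 to 48.0 TPM overlaps Lifr at 27.7 to 39.2 TPM, and Jak1 at 10.1 to 18.5 TPM overlaps Gbx2 at 8.92 to 21.3 TPM. The TPM of the receptor genes includes short transcripts with few reads. A noncoding Lifr transcript of 299 bases was given 0 to 10.4 TPM from at most 17.2 counts, and an Il6st transcript of 322 bases 0 to 10.5 TPM from at most 19.9 counts. Levels below are therefore CPM, with intervals that are exact at 95% and cover counting error only.

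The LIF receptor gene Lifr (chromosome 15, 7090614 to 7197489, plus strand) had the smallest range of the members by CPM, though with log2(TPM + 1) Pim1 was below it, at 0.406 against 0.489. Clone 8 was highest with 174 CPM, clones 13, 6 and 17 had 156, 154 and 153, clone 14 was the median with 148, clones 10, 11 and 1 had 144, 144 and 143, and clone 4 was lowest with 133 CPM. From clone 8 to clone 4 this is a 1.31-fold difference (interval 1.23 to 1.39). In the order of clones, 6 of the 8 pairs of neighbours could not be told apart by counting, and the exceptions were clone 8 above clone 13 and clone 1 above clone 4. Counting noise was nevertheless exceeded (adjusted p = 9.1e-17, chi-square). The range of 0.39 was 0.227 without clone 8 and 0.28 without clone 4.

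Most Lifr reads were given to transcripts that encode the full-length receptor. Its 3 transcripts of 1092 codons took 91.3 to 96.5% of the estimated count, and 3 transcripts of 719 codons, the length of the soluble mouse LIF receptor, which lacks the membrane anchor (1 of them annotated as a target of nonsense-mediated decay), took the larger part of the rest. The 719-codon share was 8.55% in clone 13 (exact binomial interval 7.39 to 9.87), 7.37% in clone 6 and 6.05% in clone 1, with 3.18% in clone 11 (interval 2.47 to 4.02) as the lowest. These shares are the estimates of the authors' tool, which divides reads between overlapping transcripts, and the intervals do not cover that step.

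**Figure D2:**
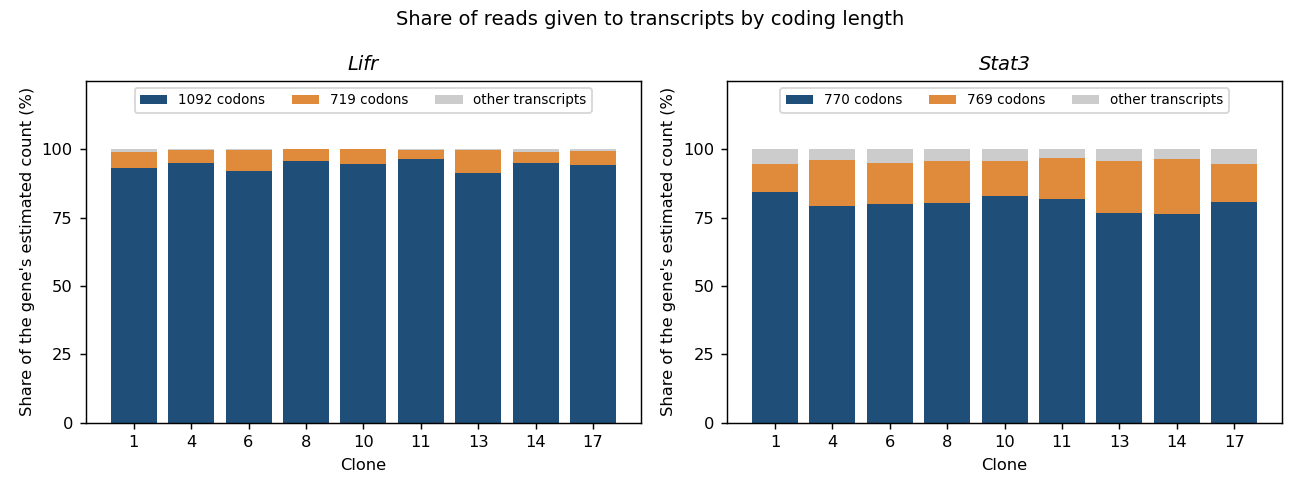
Share of each gene's estimated count (vertical axis, percent) given to transcripts by coding length in each of the 9 clones (horizontal axis), for Lifr and Stat3. The 1092-codon form of Lifr takes 91.3 to 96.5% and the 770-codon form of Stat3 76.2 to 84.4% in every clone.

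The co-receptor gene Il6st (chromosome 13, 112464070 to 112510086, plus strand), whose product gp130 is shared by the receptors of the interleukin 6 family, was highest in clone 4 with 163 CPM. Clones 13, 6 and 11 followed at 138, 130 and 126 CPM, clone 1 was the median at 119.6 CPM, and clones 8, 14, 10 and 17 were at 117, 111, 108 and 104 CPM. Clone 4 stood 1.18-fold above clone 13 (interval 1.11 to 1.25), and the other 7 neighbour pairs had intervals that include 1. From clone 4 to clone 17 the difference was 1.56-fold (interval 1.46 to 1.67, adjusted p = 1.1e-55 for counting noise, chi-square). The range of 0.64 was 0.405 without clone 4. Clone 4 thus had the most Il6st and the least Lifr. Between 89.4 and 97.6% of the Il6st count lay in transcripts of the full 917 codons.

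The kinase gene Jak1 (chromosome 4, 101152367 to 101265282, minus strand) was low in a pair of clones. Clones 1 and 4 had 32.6 and 34.3 CPM. The other 7 had 51.3 (clone 11), 50.4 (clone 8), 50.3 (clone 14), 48.1 (clone 17), 47.0 (clone 6), 46.2 (clone 13) and 45.4 CPM (clone 10). The step from clone 10, the lowest of those 7, to clone 4 was 1.32-fold (interval 1.17 to 1.5), and the 7 other neighbour pairs could not be told apart by counting. Clone 11 exceeded clone 1 by 1.57-fold (interval 1.38 to 1.79, adjusted p = 4.4e-18 for counting noise, chi-square). Clone 1 also had the smallest library. The median of 50 genes around Jak1 lay at 0 in clone 1 and at -0.13 in clone 4, and Jak1 itself lay at -0.52 and -0.45 in these clones on the log2 scale.

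**Figure D3:**
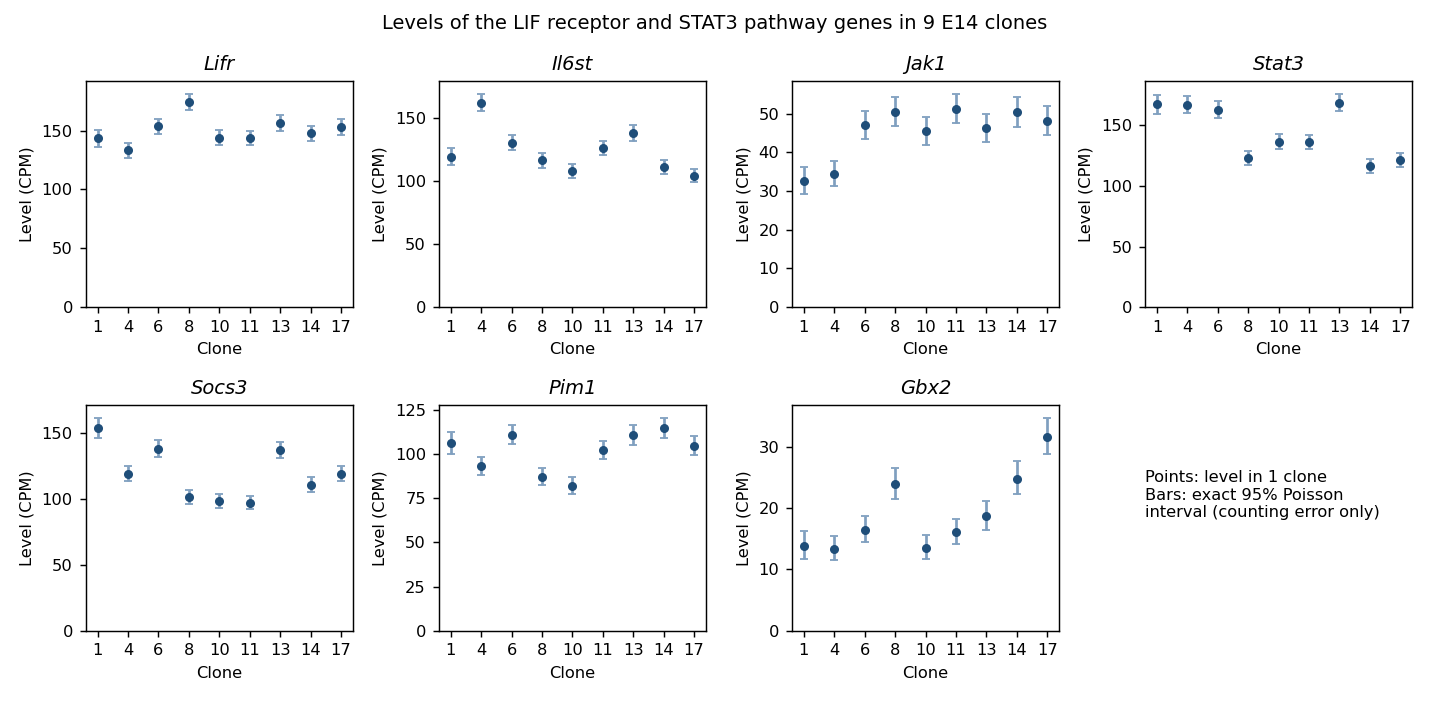
Level in CPM (vertical axes, from 0) of the 7 pathway genes in each clone (horizontal axes); points are single clones and bars are exact 95% Poisson intervals that cover counting error only. Jak1 is lowest in clones 1 and 4, Stat3 lies at 163 to 169 CPM in clones 13, 1, 4 and 6, and Gbx2 is highest in clones 17, 14 and 8.

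The transcription factor gene Stat3 (chromosome 11, 100885098 to 100939540, minus strand) showed 3 levels. Clones 13, 1, 4 and 6 had 169, 167, 167 and 163 CPM, clones 10 and 11 both had 136 CPM, and clones 8, 17 and 14 had 123, 121 and 116 CPM. Clone 6 lay 1.2-fold above clone 11 (interval 1.13 to 1.27) and clone 10 lay 1.11-fold above clone 8 (interval 1.04 to 1.19), and the 6 neighbour pairs within levels had intervals that include 1. Clone 13 exceeded clone 14 by 1.45-fold (interval 1.36 to 1.55, adjusted p = 8.8e-72 for counting noise, chi-square).

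Stat3 and the median of its chromosome lay on the same side of 0 in these 7 clones other than 10 and 11, but by different amounts. In clones 8, 17 and 14 it lay 0.15, 0.17 and 0.23 log2 units below its median, and the 1070 other tested genes of chromosome 11 lay at medians of -0.40, -0.38 and -0.36 there. In clones 13, 1, 4 and 6 the chromosome lay at 0.11, 0.09, 0.12 and 0.06, and Stat3 at 0.31, 0.30, 0.29 and 0.26. With the chromosome median subtracted, the range of Stat3 was 0.259 in place of 0.54, and the order of clones changed. Stat3 was then at 0.13 to 0.25 in the 7 clones other than 10 and 11, highest in clone 8, and at -0.0079 and -0.013 in clones 10 and 11. The 50 nearest genes (100117327 to 101471853) gave a range of 0.277, again with clones 10 and 11 lowest, at -0.03 and -0.04, but with clone 13 highest at 0.24 and clone 8 at 0.18. The part of the chromosome in the level of Stat3 was not tested.

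Most Stat3 reads went to the full-length form in every clone. The transcript of 770 codons took 84.4% of the count in clone 1 (exact binomial interval 82.7 to 86.1) and 76.2% in clone 14 (interval 74.0 to 78.3), the highest and lowest clones, and a transcript that is 1 codon shorter took 20.4% in clone 14 (interval 18.5 to 22.5) and 10.2% in clone 1 (interval 8.77 to 11.7). The transcript of 722 codons, the length of STAT3 beta, which ends before the usual transactivation domain, took 2.24% in clone 6 (interval 1.69 to 2.95) and 1.02% in clone 11 (interval 0.62 to 1.56), the highest and lowest clones, from 16.9 to 51.6 counts.

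Among the targets, Socs3 (chromosome 11, 117966079 to 117970047, minus strand) was highest in clone 1 with 154 CPM. Clones 6 and 13 had 138 and 137 CPM, clones 17 and 4 both 119 CPM and clone 14 had 111 CPM. Clones 8, 10 and 11 were lowest with 101.4, 98.7 and 97.2 CPM. Neighbours among these last 3 could not be told apart by counting, nor could clones 6 and 13 or 17 and 4, whereas clone 1 lay above clone 6 (interval of the ratio 1.04 to 1.19) and clone 13 above clone 4 by 1.15-fold (interval 1.07 to 1.23). Clone 17 also lay above clone 14 (interval 1.001 to 1.152) and clone 14 above clone 8 (interval 1.02 to 1.18). Clone 1 exceeded clone 11 by 1.59-fold (interval 1.48 to 1.71, adjusted p = 1.9e-67 for counting noise, chi-square). By TPM the order of the low clones differed, with clone 8 lowest at 59.13 and clones 10, 14 and 11 at 60.85, 62.15 and 62.59 TPM.

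Socs3 stood differently beside the chromosome. In clones 10 and 11 it lay at -0.27 and -0.29 log2 units, where chromosome 11 lay at 0.0076 and 0.013. In clone 17 it lay at its own median, where the chromosome lay at -0.38. With the chromosome median subtracted, Socs3 was lowest in clones 11, 10 and 4, at -0.31, -0.28 and -0.12, and lay at 0.09 to 0.38 in the other 6 clones, highest in clone 17. Its range was 0.69 after this step, against 0.66 before it, and 0.58 against the 50 nearest genes. Clones 10 and 11 are also those with the highest summed trophoblast, mesoderm, fibroblast and neural markers given above, although not every gene of these lists was high there, and their part in the level of Socs3 was not tested. In bulk RNA, fewer cells with a transcript and less transcript per cell cannot be told apart.

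**Figure D4:**
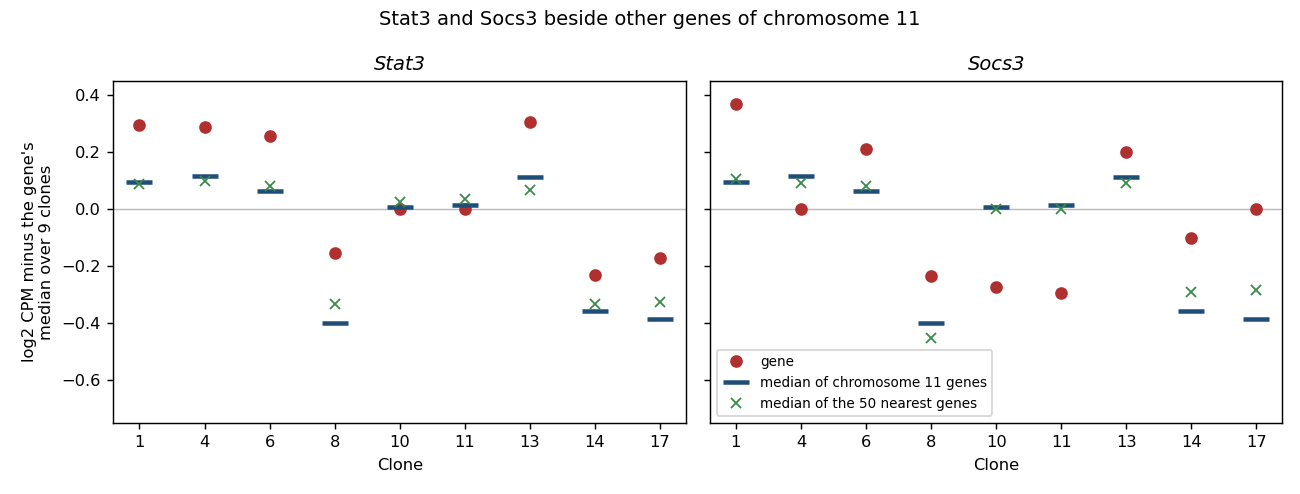
Log2 CPM minus each gene's median over the 9 clones (vertical axis) by clone (horizontal axis) for Stat3 and Socs3, with the median of the other chromosome 11 genes tested as bars and of the 50 nearest genes as crosses. In clones 8, 14 and 17 the bars lie at -0.40 to -0.36 and both genes lie above them, and in clones 10 and 11 Socs3 lies below its bar.

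The ratio of Socs3 to Stat3, which sets the inhibitor beside the factor that induces it, is free of library scaling. On the TPM scale it was 1.37, 1.33, 1.27, 1.25, 1.25 and 1.23 in clones 14, 17, 1, 8, 6 and 13, and 1.11, 1.10 and 1.09 in clones 10, 11 and 4. Clones 14, 8 and 17 had the least Stat3 on this scale, at 45.5, 47.2 and 51.8 TPM, and their ratios were not alike. On the CPM scale the ratio was 0.71, 0.71 and 0.72 in clones 11, 4 and 10 and 0.81 to 0.98 in the other 6 clones.

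Pim1 (chromosome 17, 29490753 to 29496112, plus strand) differed 1.40-fold between clone 14 and clone 10 (interval 1.30 to 1.52, adjusted p = 5.3e-26 for counting noise, chi-square). Clones 14, 6, 13, 1, 17 and 11 had 115, 111, 110.5, 106, 104.6 and 102 CPM, and clones 4, 8 and 10 had 92.9, 87.1 and 81.8 CPM. Clone 11 lay 1.10-fold above clone 4 (interval 1.02 to 1.19), and the 7 other neighbour pairs had intervals that include 1. By CPM, Pim1 was thus low in clone 10 and not in clone 11, although Socs3 was low in both. Its only annotated transcript here has 313 codons.

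Gbx2 (chromosome 1, 89927956 to 89931179, minus strand) differed most and was the least abundant member. Clones 17, 14 and 8 had 31.7, 24.8 and 23.9 CPM and clone 13 had 18.7 CPM. Clones 6, 11, 1, 10 and 4 followed with 16.5, 16.1, 13.8, 13.6 and 13.4 CPM. These levels rest on 144 to 439 counts. Clone 17 lay 1.28-fold above clone 14 (interval 1.11 to 1.47) and clone 8 1.28-fold above clone 13 (interval 1.08 to 1.52), while clones 14 and 8 could not be told apart, nor could neighbours among the 6 lowest. Clone 17 exceeded clone 4 by 2.37-fold (interval 1.98 to 2.84, adjusted p = 2.0e-43 for counting noise, chi-square). Its range was 1.24, and 0.879 without clone 17, so that no member then reached a range of 1. The median of chromosome 1 lay at -0.01 log2 units in clone 4 and at 0 in the other 8 clones. A transcript with a retained intron took 14.1% of the Gbx2 count in clone 11 (exact binomial interval 9.95 to 19.3) and 12.9% in clone 8, and none or nearly none in clones 1, 13, 14 and 17. The coding transcript alone had 14.4 TPM in clone 8, against 12.8 in clone 13, 16.5 in clone 14 and 21.3 in clone 17. The ratios and intervals above use the reads of both transcripts, and none was computed for the coding transcript. They therefore do not tell how clone 8 stands to clones 13 and 14 in coding RNA.

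The 3 protein-coding genes whose levels followed Gbx2 most closely were Setmar, Mid1 and Gm45902, with root mean square differences of 0.11, 0.13 and 0.14 log2 units over the 9 clones. The measure is a description, since all genes share the same 9 libraries. Mid1, an X-linked ubiquitin ligase gene, had 596, 464 and 449 CPM in clones 17, 14 and 8, against 234 to 303 CPM in the rest. Setmar on chromosome 6 had 8.01, 6.85 and 6.87 CPM in the same 3, against 3.72 to 5.21 CPM in the rest.

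The wider pathway was described with 53 further genes in 7 lists by role, all found in the files, of which 46 had a mean of 1 CPM or more. Of these, 16 (34.8%) had a range of 1 or more, close to the 35.2% of all genes tested, and 2 had a range of 2 or more. With a minimum of 5 CPM it was 10 of 37 (27.0%), against 23.3% of all genes. The lists were not tested as sets.

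Ligands were scarce. Of 8 ligand genes, Lif and Ctf1 alone passed the minimum level. Lif, which the medium also supplied as protein, had 5.46 and 5.42 CPM in clones 11 and 10 and its least, 2.13 CPM, in clone 4 (ratio of clone 11 over clone 4 2.57, interval 1.65 to 4.10). Clone 4 therefore had the least Lif and Lifr and the most Il6st RNA. Il6 had at most 0.10 CPM, which is below the 0.207 to 0.288 CPM that 3 counts stand for.

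Of the 4 other receptor genes that were tested, 3 had a range of 1 or more. Cntfr, the ciliary neurotrophic factor receptor that pairs with LIFR and gp130, had 5.12, 4.91 and 4.47 CPM in clones 11, 10 and 17, against 0.42 to 1.68 CPM for the rest (ratio of clone 11 over clone 6 12.1, interval 5.29 to 33.9). Il6ra, the interleukin 6 receptor, had 7.28, 7.16, 5.87 and 5.09 CPM in clones 6, 13, 1 and 4, against 1.59 to 3.67 CPM for the remaining 5 (ratio of clone 6 over clone 17 4.58, interval 2.87 to 7.63). Those 4 clones are also the 4 with the highest Stat3 by CPM, though with the chromosome median subtracted Stat3 was highest in clone 8. Il27ra had its most in clone 10, 1.81 CPM, and its least in clone 11, 0.55 CPM (ratio 3.27, interval 1.43 to 8.37). It lies on chromosome 8, whose median was at 0.26 log2 units in clone 10 and -0.21 in clone 11. The part of that chromosome was not tested.

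Of the other Janus kinases, Jak2 had 14.2 and 9.24 CPM in clones 11 and 10, against 3.84 to 8.59 CPM for the rest, with clone 1 lowest (ratio of clone 11 over clone 1 3.69, interval 2.62 to 5.32). Tyk2 was instead lowest in clone 11 with 32.5 CPM and highest in clone 17 with 71.5 CPM (ratio of clone 17 over clone 11 2.20, interval 1.97 to 2.46). Jak3, whose range was below 1 and which was chosen after its values were seen, was also lowest in clone 11 with 30.9 CPM, and highest in clone 14 with 58.9 CPM (ratio 1.90, interval 1.69 to 2.14). Jak3 lies on chromosome 8, whose median was at -0.21 log2 units in clone 11 and 0.32 in clone 14. The part of that chromosome in the level of Jak3 was not tested. None of the 6 other STAT genes had a range of 1.

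The adaptors link gp130 to the ERK branch, and 2 of 5 had a range of 1 or more. Gab1, a docking protein, had 394, 385, 353 and 327 CPM in clones 14, 8, 17 and 10, against 162 to 264 CPM for the rest (ratio of clone 14 over clone 1 2.42, interval 2.30 to 2.56). It lies on chromosome 8, whose median was at 0.32, 0.28, 0.31 and 0.26 log2 units in these 4 clones and between -0.21 and 0 for the rest. Grb2, on chromosome 11, was highest in clone 11 with 89.8 CPM and lowest in clone 1 with 44.2 CPM (ratio 2.03, interval 1.83 to 2.27), where that chromosome lay at 0.013 and 0.09. The part of these chromosomes was not tested.

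Of the 14 inhibitor genes, 4 had a range of 1 or more, and they did not share an order. Socs4 had 28.9, 28.2 and 24.5 CPM in clones 8, 17 and 14, against 13.8 to 17.9 CPM for the rest. Pias3, which binds STAT3, had 17.8, 16.8 and 13.5 CPM in clones 17, 14 and 8, against 7.14 to 11.5 CPM for the rest. Socs1, an inhibitor of Janus kinases, was instead lowest in those clones, with 1.79, 2.24 and 2.55 CPM (clones 8, 17 and 14), and highest in clone 1 with 4.70 CPM. Socs5 had 10.8 and 10.0 CPM in clones 11 and 10 and its least, 5.09 CPM, in clone 1.

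Of the 12 other STAT3 targets, 4 had a range of 1 or more, Klf5, Tfcp2l1, Fos and Cebpb. Tfcp2l1, which links STAT3 to the naive state, had 345 and 381 CPM in clones 10 and 11, against 609 to 829 CPM for the rest (ratio of clone 4 over clone 10 2.40, interval 2.32 to 2.49). Klf5 was highest in clone 17 with 192 CPM and lowest in clone 4 with 75.3 CPM (ratio 2.55, interval 2.37 to 2.75), and clones 11 and 10 had 93.9 and 102 CPM. Klf4, a direct STAT3 target in these cells, was lowest in clone 10 with 57.9 CPM, and the remaining 8 had 77.2 to 105 CPM (ratio of clone 6 over clone 10 1.81, interval 1.66 to 1.98). Fos was highest in clone 1 with 8.06 CPM and lowest in clone 17 with 3.90 CPM. Cebpb was highest in clone 11 with 3.69 CPM and lowest in clone 14 with 1.54 CPM. The lowest clone thus differed between targets, being clone 10 for Pim1, Klf4 and Tfcp2l1, clone 11 for Socs3, clone 4 for Gbx2 and Klf5, clone 17 for Fos and clone 14 for Cebpb. For Socs3 and Gbx2 the lowest clone could not be told from the next, clone 10, by counting. With log2(TPM + 1) the lowest was clone 8 for Socs3 and clone 1 for Gbx2. Nor could clone 10 be told from the next, clone 8, for Pim1. The next clone was also close for Cebpb (clone 8, 1.56 CPM) and for Fos (clone 4, 4.33 CPM). No interval between neighbours was computed for the list genes. The stem cell and other markers of clones 10 and 11 given above stand beside these values, and their part was not tested.

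**Figure D5:**
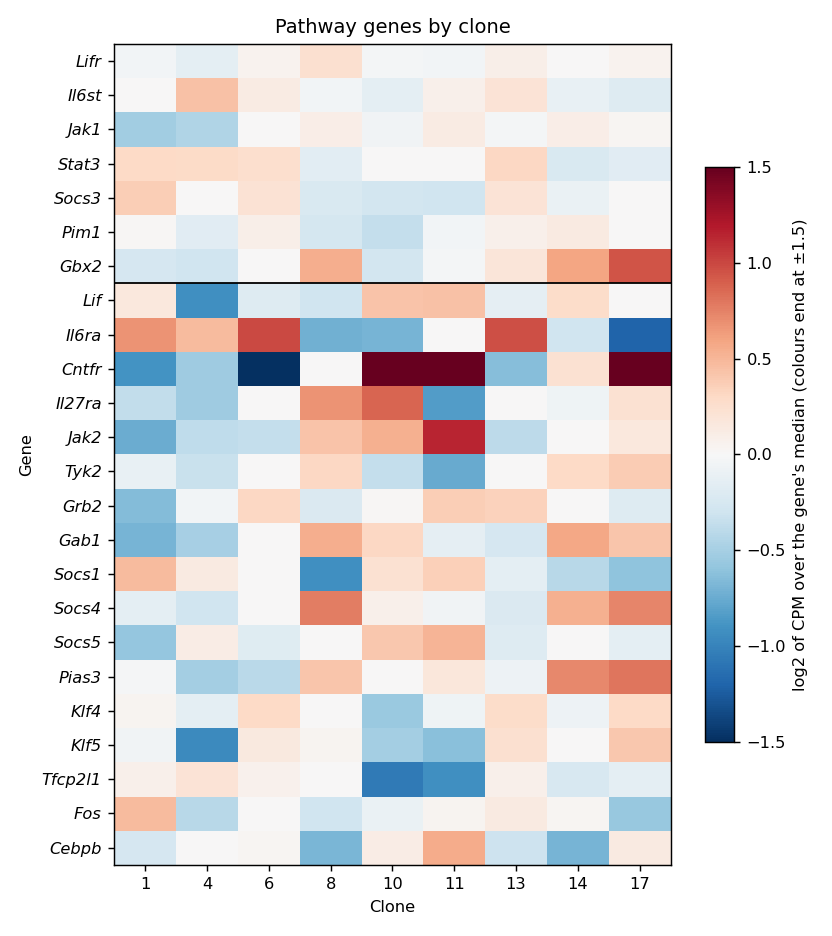
Log2 of CPM over each gene's median over the 9 clones (colour, ending at ±1.5) for the 7 pathway genes above the line and the named genes of the wider lists below it (vertical axis), by clone (horizontal axis). Among the pathway genes the stronger colours are those of Gbx2 in clones 17, 14 and 8 and of Jak1 in clones 1 and 4, and Cntfr, Il6ra, Jak2 and Tfcp2l1 show the stronger colours below the line.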

How the data were processed

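RNA from 9 clones was sequenced from a stranded mRNA library kit, per the labels' protocols. The submitters' processing notes name kallisto 0.43.1, Trimmomatic 0.33, CASAVA 1.8 and FastQC as tools, and GRCm38 and mm10 as builds. According to the file headers, the tables deposited by the authors give an estimated count, which need not be whole, and a TPM value for each of 115270 transcripts. No annotation release is given in the sources used here. Of the transcripts, 113580 (98.5%) matched GENCODE M21 by Ensembl identifier and were summed by gene symbol; the rest held 0.641 to 0.773% of the counts.

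CPM used TMM factors (edgeR 4.0.16, R 4.3.3), and log2 CPM a prior count of 2. Rounded counts served for the chi-square tests (scipy 1.17.1) and the exact ratio intervals. No group model was fitted, since no labels form groups, and no correlation across clones was computed. The steps were tested on simulated data. The members, the lists and the naming rule were chosen with earlier results of these data known. The rule took, beside the members, list genes with a range of 1 or more, Lif, Klf4, Tfcp2l1, Jak2 and a gene that is not reported here, the 3 genes closest to any member with a range of 1 or more, and transcripts with a mean of 1 TPM; names outside it were chosen after their values were seen (Ctf1, Il6, Jak3, the 722-codon and retained-intron transcripts, and those of the closing section). Alternatives were median-ratio size factors (DESeq2 1.42.0), log2(TPM + 1), a prior count of 0.5, no filter, 5 CPM, coding transcripts only, subtraction of chromosome medians and each clone left out.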

Additional observations from a re-analysis of the deposited data

How the results depend on the processing

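Leaving out each clone gave a range of 0.227 to 0.388 for Lifr, 0.405 to 0.643 for Il6st, 0.492 to 0.675 for Socs3 and 0.879 to 1.24 for Gbx2, and a count of 0 to 1 members with a range of 1 or more; removing an extreme clone lowers a range by construction. With log2(TPM + 1) the ranges of Lifr, Il6st and Socs3 were 0.489, 0.736 and 0.547, and 424 genes had a range of 2 or more in place of 1059; the cause was not tested. Without a filter on low values, more genes were examined. The share of them that reached a range of 1 or more was also larger, at 47.1% in place of 35.2%, and why was not tested. The counts were then 11585 in place of 4708 for a range of 1 or more, and 2715 for 2 or more. With a minimum of 5 CPM these were 2420 and 353, with 10 pathway list genes in place of 16. After subtracting the chromosome median the range of Stat3 was 0.259, and against the 50 nearest genes, an alternative chosen after seeing the data, it was 0.277 and that of Lifr, with 39 such genes, 0.231. Over the alternatives other than the filters and leaving out a clone, the highest clone was the same in 33 of 42 values and the lowest in 38 of 42. The prior count of 0.5 is among these alternatives. It cannot change the order of clones, since the prior is scaled by library size, so its agreements were fixed in advance. With 1 library per clone, differences between clones include any difference between cultures and libraries.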

Other observations

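Among 53 genes examined, the 7 members and the 46 tested genes of the wider lists, none had a single clone standing apart from the other 8 by more than Dixon's 95% critical value, which chance exceeds in about 1 in 20 groups.

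The following genes were chosen after their values were seen. Stat5a, which lies beside Stat3 on chromosome 11, had 5.15, 4.75, 4.53 and 4.23 CPM in clones 13, 1, 4 and 6, against 2.75 and 2.85 CPM in clones 10 and 11 and 2.56 to 3.06 CPM in clones 8, 14 and 17. Stat5b, in the same stretch, was instead highest in clones 10 and 11, at 7.15 and 6.86 CPM, and at 3.92 CPM in clone 1. Clones 4 and 6 had 5.965 and 5.97 CPM, and clones 8, 13, 14 and 17 had 4.12 to 5.12 CPM. The ratio of clone 13 over clone 14 was 2.01 for Stat5a (interval 1.32 to 3.12). For Stat5b the ratio of clone 10 over clone 1 was 1.82 (interval 1.25 to 2.68). These intervals do not cover how the authors' tool divided reads between these related genes. That step and the part of chromosome 11 were not tested. Single marker genes differed from their lists in clones 17, 8 and 14, where Gbx2 was highest. Of the stem cell list, Fgf4 was higher there, with 240, 215 and 191 CPM against 105 to 137 CPM in the rest. Nanog of the same list had 281, 327 and 309 CPM there, against 460 to 528 CPM in clones 1, 4, 6 and 13 and 264 and 246 CPM in clones 10 and 11, and Sox2 had 289, 297 and 301 CPM, against 234 to 294 CPM in the rest. Of the neural list, Sox1 had 7.14, 5.30 and 2.92 CPM there, against 0.28 to 0.78 CPM in the rest, whereas Nes had 14.4, 15.4 and 19.8 CPM and the list summed to 148, 130 and 146 CPM. Pim3, a relative of Pim1 in the target list, had 314 and 289 CPM in clones 17 and 14, against 166 and 182 CPM in clones 10 and 11. The others lay between, with 256.5 and 248 CPM in clones 4 and 8 and 196 to 211 CPM in clones 1, 6 and 13.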
